A study of Mus musculus with 4 samples.

Results

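The genes of the p38 family of mitogen-activated protein kinases, Mapk14 (p38α, RefSeq gene 26416), Mapk13 (p38δ, 26415), Mapk11 (p38β, 19094) and Mapk12 (p38γ, 29857), were examined for open chromatin in fetal γδ thymocytes that had lost the transcription factor c-Maf. Peaks of the 4 libraries that overlapped by at least 1 bp were merged into regions, and a region belonged to a gene when that gene's body was the nearest protein-coding one within 100 kb. This gave 30 regions at the 4 genes out of 171490 in the genome, and 24 of them were called in 2 or more libraries. The family was chosen by the presence and −log10 q of peaks in these same libraries, since Mapk14 holds the top ranked region called in both WT and neither KO library. The values of that comparison are therefore given as a description and without a test.

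The KO libraries came from Maf fl/fl Il7r-Cre fetuses, in which Cre expressed from the Il7r locus deletes floxed Maf in lymphoid cells, and the WT libraries from Maf+/+ Il7r-Cre fetuses, which carry the Cre as well. Both genotypes were studied at embryonic day 17 to 18 with 2 libraries of each (KO 1, KO 2, WT 1 and WT 2), and the alleles had been backcrossed to C57Bl/6 for 5 generations. Thymocytes of several fetuses were pooled, and γδ cells with surface CD3ε and CD24, low CD45RB and neither CD4 nor CD8 were sorted for Omni-ATAC, an assay in which Tn5 transposase cuts open DNA. The labels do not say whether 2 libraries of a genotype came from separate pools.

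The KO lists held 130935 and 120141 peaks on chromosomes 1 to 19 and X, and the WT lists 102718 and 132179. Read totals are not analysed here, so the number of peaks is the only depth given. All 10 marker genes of the sorted cells, among them Cd3e, Trdc and Cd24a, were marked by a peak less than 1 kb from an end of the gene in every library. All 5 αβ thymocyte markers were too. Of 5 markers per list, B cell genes so marked numbered 2 and 3 in KO and 2 and 3 in WT, myeloid genes 2 in each library, erythroid genes 3 and 2 in KO and 2 and 2 in WT, and stromal genes 3 and 4 in KO and 4 and 4 in WT. Pax5, Csf1r, Mpo, Lyz2, Gata1, Alas2 and Pdgfra had no such peak in any library. The part of other cells in the results below was not tested.

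The p38 kinases relay stress, cytokine and antigen receptor signals. Upstream MAP2 kinases, chiefly those encoded by Map2k3 and Map2k6, phosphorylate a threonine and a tyrosine of their activation loop, and the active kinase then phosphorylates other kinases and transcription factors. Mapk14 encodes the broadly expressed α form, Mapk13 the δ form found in epithelia and leukocytes, Mapk11 the β form, and Mapk12 the γ form that is abundant in skeletal muscle. In mouse T cells p38 activity is known to promote production of interferon-γ and IL-17. The genes form neighbouring pairs in the mouse genome (GRCm38). Mapk14 (28691342 to 28748405) and Mapk13 (28769286 to 28778704) lie on chromosome 17, 20.9 kb apart and both on the plus strand, and Mapk12 (89130584 to 89141577) and Mapk11 (89142482 to 89149606) lie on chromosome 15, 904 bp apart and both on the minus strand.

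The start of each gene is shown first because the 4 genes differed in how peaks covered the 250 bases before it. The 250 bases before the RefSeq start are given from the RefSeq promoter table of GRCm38.p6, 5′ to 3′ on the gene's strand, with the bases covered by a peak in all 4 libraries in capitals. The windows are chr17:28691092-28691341 for Mapk14, chr17:28769067-28769316 for Mapk13, chr15:89149607-89149856 for Mapk11 and chr15:89140704-89140953 for Mapk12, and all 4 genes are in the table. The start given for Mapk12, 89140703, lies inside its gene body.
Mapk14: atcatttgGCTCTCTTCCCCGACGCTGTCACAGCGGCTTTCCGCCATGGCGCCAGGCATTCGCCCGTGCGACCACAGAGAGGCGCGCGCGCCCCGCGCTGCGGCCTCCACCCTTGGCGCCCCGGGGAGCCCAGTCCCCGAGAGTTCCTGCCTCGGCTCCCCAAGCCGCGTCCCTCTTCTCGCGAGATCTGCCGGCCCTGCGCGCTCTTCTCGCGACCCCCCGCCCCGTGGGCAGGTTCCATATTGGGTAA
Mapk13: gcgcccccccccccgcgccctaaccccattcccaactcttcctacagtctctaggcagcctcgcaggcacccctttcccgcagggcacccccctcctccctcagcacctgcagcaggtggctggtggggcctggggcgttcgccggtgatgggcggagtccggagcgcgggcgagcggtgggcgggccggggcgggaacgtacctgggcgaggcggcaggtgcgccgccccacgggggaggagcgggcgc
Mapk11: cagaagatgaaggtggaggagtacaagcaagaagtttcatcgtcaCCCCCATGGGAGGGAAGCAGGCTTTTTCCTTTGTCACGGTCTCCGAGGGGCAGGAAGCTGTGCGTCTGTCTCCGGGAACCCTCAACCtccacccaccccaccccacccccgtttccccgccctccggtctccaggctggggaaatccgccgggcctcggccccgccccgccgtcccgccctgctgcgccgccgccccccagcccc
Mapk12: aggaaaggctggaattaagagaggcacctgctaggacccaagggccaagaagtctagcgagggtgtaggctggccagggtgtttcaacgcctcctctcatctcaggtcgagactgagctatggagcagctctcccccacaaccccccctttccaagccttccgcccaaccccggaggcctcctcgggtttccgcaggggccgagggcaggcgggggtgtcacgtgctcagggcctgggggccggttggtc

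Peaks of all 4 libraries covered 242 of the 250 bases at Mapk14 and 87 at Mapk11, and 0 at Mapk13 and Mapk12. At Mapk13 a peak of WT 2 alone covered 94 bases of the window, and at Mapk12 no library had a peak in it. Regions called in all 4 libraries lay near these windows. They were at 28769497 to 28769850, inside Mapk13, and at 89141616 to 89141794, 39 bp upstream of the Mapk12 gene body. The windows held 70.4% G and C at Mapk14, 76.0% at Mapk13, 68.0% at Mapk11 and 64.4% at Mapk12, against a median of 52.4% over the 32851 windows of the table. CpG dinucleotides numbered 30, 25, 18 and 11 in the same order of genes, against a median of 6. Mapk14 has another RefSeq start at 28692568, and peaks of all 4 libraries covered 65 of the 250 bases before it. Motifs were searched on both strands of these 5 windows. The AP-1 site TGANTCA (N, any base) was in 0 of them and in 6.75% of all windows. The sequence TGCTGA, an arm of the Maf recognition element, was in 1, at Mapk13, and in 16.1% of all windows. The full Maf recognition element, which contains an AP-1 site, was in 0 of them and in 2 windows of the table.

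The region that set the genotypes apart lay inside Mapk14. At 28716196 to 28716461 on chromosome 17 neither KO library had a peak, while the −log10 q of the summit was 58.1 in WT 1 and 142.0 in WT 2. The q of a peak is its p corrected for multiple testing within its library, and "tall" and "low" below refer to −log10 q. Both −log10 q and fold enrichment are the authors' values within each library, and the 2 can order peaks differently. The fold enrichment of the summit over the local background of its library was 19.2 in WT 1 and 32.7 in WT 2. The peak stood at position 10396 of 102718 in the WT 1 list and at 6892 of 132179 in the WT 2 list, ordered by −log10 q. The WT summits were 2 bp apart, and that of WT 1 lay 25.0 kb from the gene's start, inside the gene body. Each library pools many cells, so fewer cells with an open site and a less open site in each cell cannot be told apart. Whether the DNA of this region differs between the backcrossed genotypes was not tested, and peak lists cannot show it.

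The open regions on either side of this one were called in all 4 libraries. The nearest KO peaks ended 6.09 kb (KO 1) and 6.19 kb (KO 2) before it, and the nearest WT peaks 6.21 kb (WT 1) and 6.18 kb (WT 2) before it. On the other side the next peak began 19.6 kb away in every library. Within Mapk14 peaks far lower than the WT ones were called in both KO libraries. An example is the region at 28737087 to 28737218, with a fold enrichment of 3.37 in KO 1 and 3.67 in KO 2 against 3.50 in WT 2. WT 1 had no peak there. A list without a peak does not show closed chromatin, and the part of depth or calling in the missing KO peak was not tested.

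Across the genome 6805 regions were at least as high as this one in both WT lists, by percentile within the list. Of these, 6801 (99.9%) were called in both KO libraries, 3 in 1 KO library and 1, the Mapk14 region itself, in neither. By the lower of its percentiles in the 2 WT lists (89.9 and 94.8) it was the first of 3542 regions called in both WT and neither KO library (WT-only), and the next, within Hc, had 87.5 and 88.4. The median of this lower percentile was 16.5 over the WT-only regions. Over the 5311 regions called in both KO and neither WT library (KO-only) the lower percentile in the KO lists had a median of 13.3 and a highest value of 85.2. The Mapk14 region was 266 bp wide. It was chosen as the top ranked WT-only region, so its first place was fixed in advance. So was the lack of any other region without a KO call among the 6805.

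**Figure D1:**
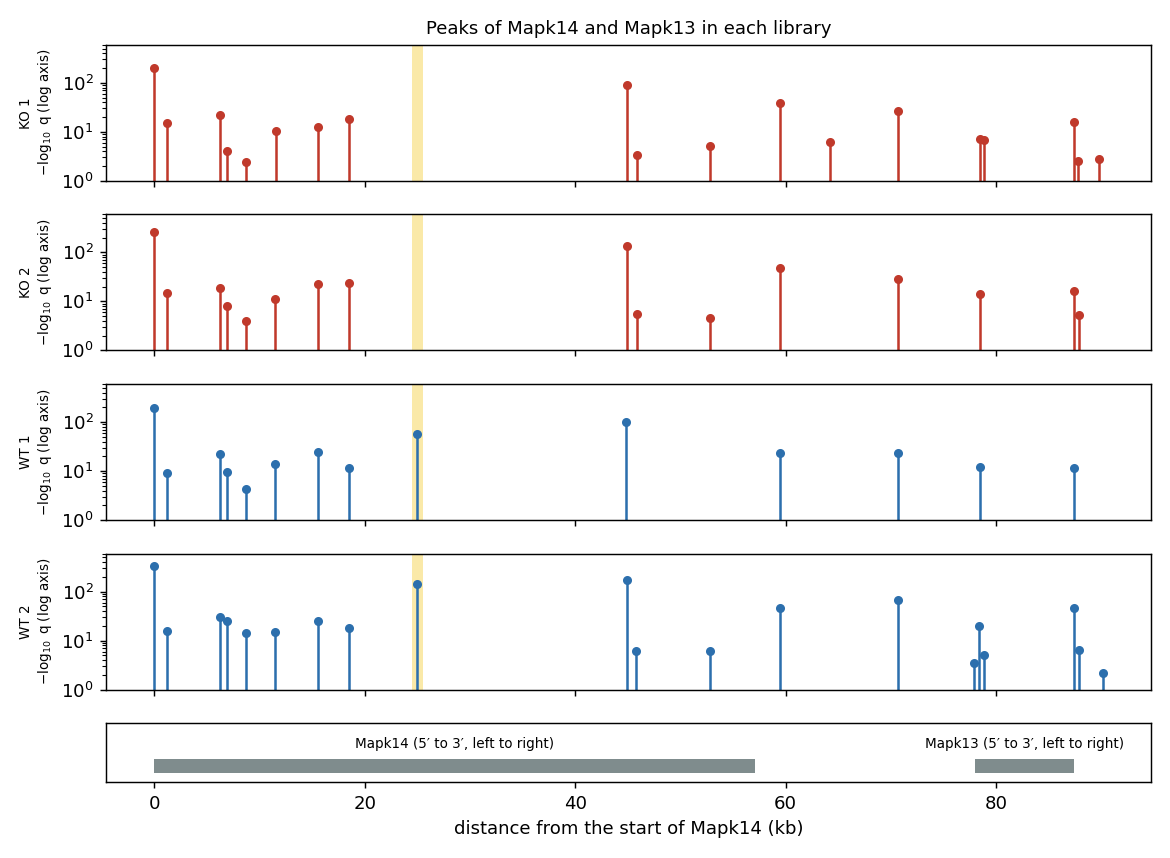
Peaks of Mapk14 and Mapk13 by distance from the start of Mapk14 (kb), 1 panel per library, with the −log10 q of each summit on a log axis. The yellow band marks the region called in WT 1 (58.1) and WT 2 (142.0), which is empty in both KO panels, while the peaks beside it recur in all 4 panels.

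**Figure D2:**
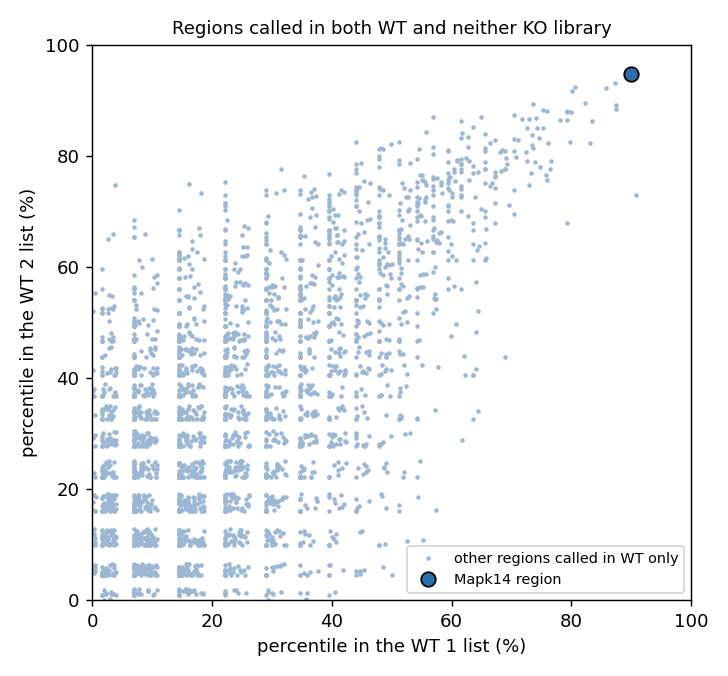
Percentile of each of the 3542 regions called in both WT and neither KO library in the WT 1 list (horizontal axis) and in the WT 2 list (vertical axis), 1 point per region. The Mapk14 region, at 89.9 and 94.8, lies at the upper right, and most others lie low in at least 1 list.

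Over the 4 genes 0 of the 24 regions called in 2 or more libraries were called in KO only, against 4.34% in the genome, and 1 was called in WT only, against 2.89%. The contrast chose the family, so nothing is read from these counts. The single WT-only region is the one at Mapk14, and Mapk13, Mapk11 and Mapk12 had 0 of either kind among 5, 4 and 2 such regions. By gene, 0 of 4 had a KO-only region, against 20.8% of the 17654 genes with a region in 2 or more libraries, and 1 of 4 had a WT-only region, against 14.8%. Regions called in all 4 libraries numbered 19 of 24, against 64.2% in the genome, and were spread over all genes, with 10 at Mapk14, 3 at Mapk13, 4 at Mapk11 and 2 at Mapk12. Peaks at the 4 genes numbered 26 and 22 in KO and 20 and 27 in WT, a mean of 24.0 ± 2.83 in KO and 23.5 ± 4.95 in WT (SD, n = 2 each). The difference of 0.5 peaks was smaller than the spread within either genotype. With 2 libraries against 2 the smallest p of an exact permutation test would be 0.333, so none is given.

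The counts of genotype-specific regions depended on the lists used. With KO 2 left out, 3 regions seen in KO 1 alone became KO-only, 1 each at Mapk11, Mapk14 and Mapk13. With WT 2 left out, 3 regions missed by WT 1 became KO-only, of which 2 were at Mapk14 and 1 at Mapk13. With WT 1 left out the WT-only regions were 4, with 1 at Mapk12 and 2 at Mapk13 seen in WT 2 alone beside the Mapk14 region. With the same number of peaks taken from each list they were 3, as regions at 89141616 to 89141794 (Mapk12) and 28699963 to 28700085 (Mapk14) joined it.

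The Mapk14 promoter was open in all 4 libraries. The region at 28691068 to 28691540 had a −log10 q of 204.7 and 266.5 in KO, against 197.1 and 328.3 in WT, with fold enrichments of 30.1 and 33.2 in KO and 29.0 and 29.9 in WT. It was the tallest of the 4 genes in every library, and the KO values lay within the range of the WT ones for −log10 q but above both of them for fold enrichment. The summit stood 10 bp before the RefSeq start in KO 1, KO 2 and WT 2 and 56 bp before it in WT 1. This region also overlaps the edge of Slc26a8, a transporter gene whose body ends 68 bp from that of Mapk14, so it is tied between both genes.

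The other tall region of Mapk14 lay toward the end of the gene. At 28736039 to 28736841, 45.1 kb from the start, the −log10 q was 90.3 and 137.6 in KO and 101.6 and 170.4 in WT, and the fold enrichment 19.8 and 22.9 in KO and 19.3 and 22.4 in WT. Beyond the gene's end, the region at 28750519 to 28750929 had a −log10 q of 39.4 and 48.7 in KO and 23.1 and 45.9 in WT. A cluster of 7 lower regions lay between the promoter and the WT-only region, from 28692496 to 28710104, and all were called in every library at a −log10 q of 2.37 to 30.8. Within it the region at 28698128 to 28698453 had a −log10 q of 4.07 and 8.17 in KO, below the 9.41 and 25.6 in WT. The region at 28699948 to 28700085 was likewise lower in KO, at 2.37 and 3.99, than in WT, at 4.28 and 14.2. The same order was seen at 28697349 to 28697793, with 22.1 and 18.9 in KO and 22.5 and 30.8 in WT. It was also seen at 28702708 to 28703021 (10.4 and 11.2 in KO, 14.2 and 15.1 in WT). At 28706777 to 28706996 the values were 12.3 and 22.6 in KO and 24.0 and 24.8 in WT. In fold enrichment, however, the genotypes overlapped at each of these regions that were lower in KO by −log10 q. At 28698128 to 28698453 it was 4.29 and 5.84 in KO and 5.79 and 8.69 in WT. At 28697349 to 28697793 it was 10.7 and 9.73 in KO and 9.68 and 9.94 in WT. The genotypes overlapped at 28692496 to 28692695, with 14.9 and 14.6 in KO and 9.30 and 16.0 in WT. The region at 28709659 to 28710104 had fold enrichments of 10.2 and 11.2 in KO, above the 6.87 and 9.10 in WT. Its −log10 q overlapped between genotypes, at 18.0 and 23.7 in KO and 11.4 and 18.4 in WT. Heights of different lists are not on 1 scale. By rank, given below, both KO libraries were below both WT ones at 20.7% of all regions called in all 4.

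Mapk13 had regions called in every library inside the gene near its start, upstream of it and across its end. The region near the start, at 28769497 to 28769850, had a −log10 q of 7.19 and 14.2 in KO and 12.0 and 19.6 in WT. The upstream region at 28761964 to 28762195, 7.09 kb from the gene and between it and Mapk14, was the tallest and had 27.1 and 28.8 in KO and 22.9 and 66.8 in WT. The region across the gene's end, at 28778546 to 28779020, had 15.7 and 16.3 in KO and 11.7 and 46.8 in WT. WT 2 was the highest of the 4 libraries in all 3 regions and the KO values lay within the range of the WT values in the last 2. A further 5 regions of Mapk13 were called in fewer libraries, and each peak in them had a −log10 q below 7.

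Mapk11 had 5 low regions, of which 4 were called in every library and 1, at 89145133 to 89145206, in KO 1 alone, at a −log10 q of 2.22. Of the 4, the one over its start, at 89149460 to 89149948, had a −log10 q of 6.69 and 5.06 in KO and 5.89 and 11.5 in WT, with summits 137 to 165 bp before the start. The next upstream, at 89150053 to 89150343, was the tallest of the gene, with 15.5 and 20.2 in KO and 7.71 and 21.3 in WT. Those inside the gene had 9.06 and 7.95 in KO and 2.83 and 7.98 in WT (89146575 to 89146684), and 2.89 and 8.18 in KO and 5.11 and 6.23 in WT (89147121 to 89147302). The genotypes overlapped in −log10 q at each of the 4 regions.

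Mapk12 carried 1 tall region, near the 3′ end of the gene and away from its start. At 89131439 to 89131730, 9.99 kb from the 5′ end of the gene body, the −log10 q was 75.7 and 103.7 in KO and 76.2 and 96.5 in WT, and the summits of the 4 libraries lay within 2 bp of each other. The lncRNA gene Gm46530 also covers this place in RefSeq. The other region called in every library, 39 bp upstream of the gene body at 89141616 to 89141794, had 3.37 and 3.08 in KO and 2.77 and 11.1 in WT. A peak of WT 2 alone, with a −log10 q of 1.70, lay at 89140079 to 89140173. Just outside the family, the region at 89128325 to 89128789, nearest to Hdac10, had 49.7 and 68.7 in KO and 30.3 and 84.5 in WT, and on chromosome 17 the one at 28800649 to 28800960, nearest to Brpf3, had 9.43 and 16.2 in KO and 3.1 and 10.8 in WT. The outermost member on that side, at 28781424 to 28781503, was called in WT 2 alone, at 2.17.

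**Figure D3:**
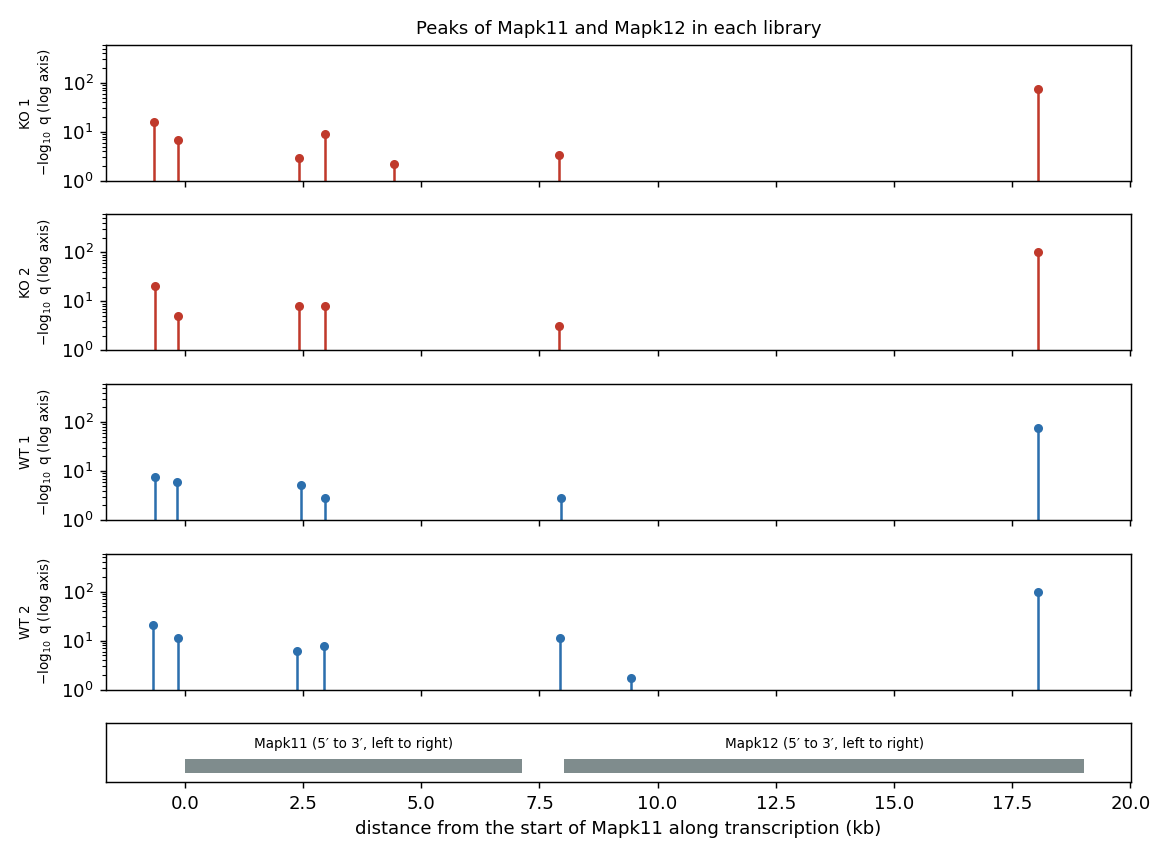
Peaks of Mapk11 and Mapk12 by distance from the start of Mapk11 along transcription (kb), 1 panel per library, with the −log10 q of each summit on a log axis. The region near the 3′ end of Mapk12 is tall in every panel (75.7 and 103.7 in KO, 76.2 and 96.5 in WT), and all others stay below 22.

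A region is the union of its peaks, so its width grows with the number of libraries merged. The 19 regions called in all 4 libraries had a median width of 314 bp, against 274 bp for all such regions of the genome, and their summits differed by a median of 41 bp between libraries. The 10 regions called in 1 to 3 libraries, the WT-only region left out, had a median width of 108 bp and a −log10 q of 1.70 to 6.94. Of the 6 called in 1 library, 3 were in KO 1 and 3 in WT 2, the longest lists.

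Heights of different lists are not on 1 scale, so the 19 shared regions were also ranked among the 78650 regions called in all 4 libraries. The median percentile of the 19 was 42.1 and 36.9 in KO and 46.2 and 41.5 in WT, so the genotypes overlapped. Region by region, the mean KO percentile minus the mean WT percentile had a median of −9.25 points, against 0.047 over all shared regions, with 13 lower and 6 higher. Both KO libraries ranked below both WT libraries at 9 regions, against 20.7% of all shared regions, and above them at 4, against 21.0%. The 9 were the 3 of Mapk13, 5 of Mapk14 and 1 of Mapk11. The 5 include the Mapk14 promoter and the region at 28736039 to 28736841, where the genotype means differed by only −0.374 and −2.09 points. By rank the genotypes overlapped at 28697349 to 28697793 and 28706777 to 28706996, both lower in KO by −log10 q. The median difference of the shared regions was −4.40 without WT 1, −5.98 without WT 2, −8.21 without KO 1 and −6.01 without KO 2. It was −3.50 when only peaks with a −log10 q of 5 or more counted, and −2.36 when peaks had to cover at least 0.5 of a region.

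The largest of these differences was at the Mapk14 region 28698128 to 28698453, with percentiles of 5.35 and 14.7 in KO and 39.1 and 47.8 in WT, a difference of −33.4 points. At the start of Mapk13 (28769497 to 28769850) they were 17.2 and 31.2 in KO and 46.7 and 38.1 in WT. At the region upstream of Mapk13 they were 62.5 and 57.4 in KO and 66.4 and 76.7 in WT. The Mapk14 promoter, at 97.7 and 98.4 in KO and 98.4 and 98.4 in WT, and the tall region of Mapk12, at 87.5 and 89.6 in KO and 91.0 and 84.9 in WT, differed by less than 1 point between the genotype means.

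**Figure D4:**
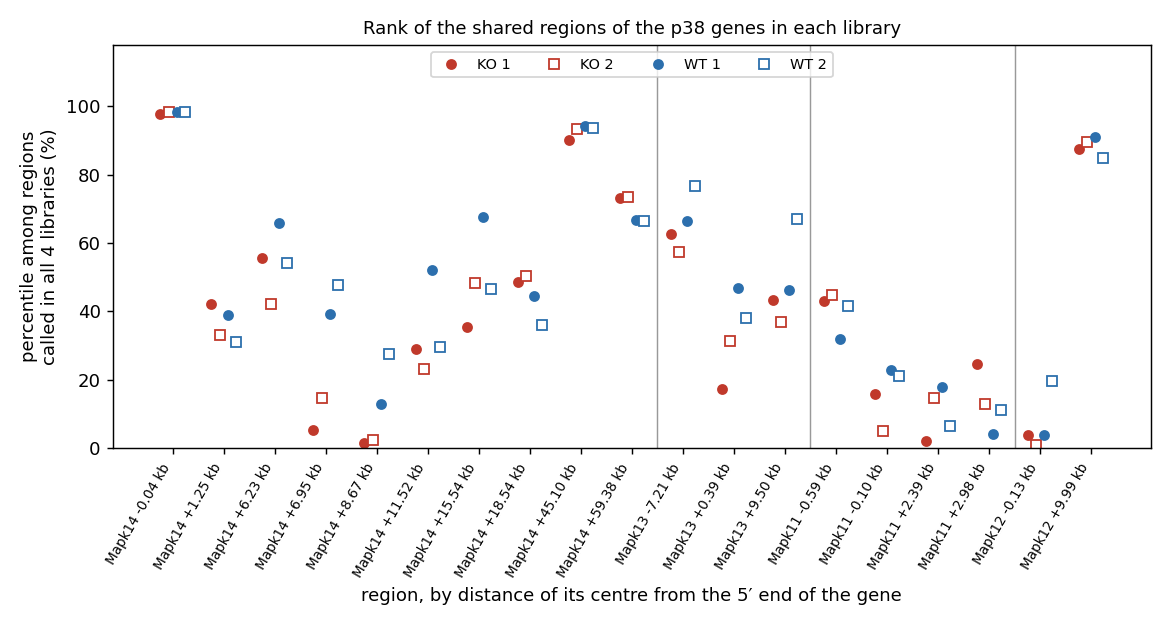
Percentile of the 19 shared regions of the p38 genes among the 78650 regions called in all 4 libraries (vertical axis, %), by gene and distance from its 5′ end (kb). Red marks are KO and blue marks WT, filled for replicate 1 and open for replicate 2, and the 3 regions of Mapk13 have both red marks below both blue ones.

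Genes with a pattern like that of Mapk14 were sought over the 4 libraries. With 1 WT-only region, 0 KO-only regions and 11 to 15 regions called in 2 or more libraries, Mapk14 (13 such regions) had 191 companions. The median of the lower WT percentile of their WT-only region was 16.1, against 89.9 for Mapk14. Mapk14 was chosen for holding the highest such percentile, so all companions had to lie below it. The nearest were Uggt2 at 82.2, Tmem144 at 67.3, Wbp1l at 65.7, Efl1 at 63.6 and Cdc7 at 61.6. At Uggt2, on chromosome 14, neither KO library had a peak at 118981790 to 118981985, 21 bp from the gene, while WT 1 reached a −log10 q of 34.9 and WT 2 one of 85.1.

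Among the genes that act with p38, the share of regions called in 1 genotype only was near that of the genome. A list of 45 kinases, adaptors, substrates and phosphatases of the pathway held 516 regions called in 2 or more libraries. Of these, 20 were KO-only (3.88%, against 4.34% in the genome) and 17 were WT-only (3.29%, against 2.89%). KO-only regions alone were found at 10 genes, WT-only regions alone at 7, both at 5 and neither at 23. Genes with any KO-only region were thus 15 of 45 (33.3%, against 20.8% of all genes with a region in 2 or more libraries), and genes with any WT-only region 12 of 45 (26.7%, against 14.8%). The listed genes also held more regions each, with a mean of 11.5 called in 2 or more libraries, against 6.67 over all such genes. Their lower percentile was 0.384 to 32.4 in KO lists for the KO-only regions and 1.62 to 34.7 in WT lists for the WT-only regions. The KO-only count was 59 without KO 1, 90 without KO 2, 26 without WT 1 and 78 without WT 2, and the WT-only count 27, 33, 74 and 44 in the same order. The rule is easier to meet with 3 lists than with 4.

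The counts by gene are a description, each given with the gene's number of regions called in 2 or more libraries. Among the upstream kinases and adaptors, Map3k7 (TAK1, a kinase of cytokine and innate signals) had 2 KO-only and 0 WT-only regions among 18, and Taok1 had 2 and 0 among 9. Taok3, a kinase of the same family as Taok1, had 0 KO-only and 3 WT-only regions among 13, all 3 within the gene on chromosome 5. The one at 117135970 to 117136254 reached 5.07 in WT 1 and 12.1 in WT 2 (−log10 q). Gadd45a, which encodes a stress-induced activator of MAP3K4, had 0 KO-only and 2 WT-only regions among 17. Gadd45g had 1 of each among 21, Map3k4 1 of each among 18 and Map3k5 (ASK1) 1 of each among 35. Tab2, an adaptor of TAK1, had 1 KO-only and 2 WT-only regions among 20, and Map3k6 had 0 and 1 among 5.

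Of the kinases directly above p38, Map2k6 had 2 KO-only and 0 WT-only regions among 23. They lay 22.6 and 38.4 kb from the gene on chromosome 11, and the nearer had a −log10 q of 5.14 in KO 1 and 4.69 in KO 2, the other 4.13 in KO 1 and 4.69 in KO 2. Map2k3 had 0 of either kind among 8, and Map2k4, which acts on JNK as well, had 0 KO-only regions and 1 WT-only region among 11. That region reached 5.44 in WT 1 and 13.7 in WT 2 (−log10 q).

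Below p38, Mapkapk2 (MK2, a kinase that p38α activates) had 1 KO-only and 1 WT-only region among 13. The MSK kinase gene Rps6ka4 had 2 KO-only regions among 5 and its relative Rps6ka5 1 among 22, and Mknk2 had 1 among 7, with 0 WT-only regions in each. Among the transcription factors, Mef2d had 1 KO-only and 0 WT-only regions among 15. Mef2a had 0 and 2 among 25, Atf2 0 and 1 among 6, and Creb1 0 and 1 among 20. The phosphatase genes Dusp10 and Ppm1d, whose products dephosphorylate p38, had 1 KO-only region each, among 18 and 10. Spag9, which encodes the scaffold JIP4, had 2 among 28, and none of these 3 genes had a WT-only region.

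The other MAP kinases are the closest relatives of p38. The 10 genes of the ERK, JNK and atypical branches held 59 regions called in 2 or more libraries, 1 of them KO-only (1.69%, against 4.34% in the genome) and 1 WT-only (1.69%, against 2.89%). The KO-only one was within Mapk9 (JNK2), at 49861280 to 49861429 on chromosome 11, and reached 7.30 in KO 1 and 5.77 in KO 2 (−log10 q). The WT-only one was 4.40 kb from Mapk15, and reached 9.28 in WT 1 and 3.91 in WT 2. Mapk3 (ERK1) and Mapk8 (JNK1) had 0 of either kind among 3 and 4 regions. Without 1 library the KO-only count was 4 (KO 1), 10 (KO 2), 5 (WT 1) and 6 (WT 2), and the WT-only count 5, 2, 8 and 4. Regions called in all 4 libraries made up 57.6% of those of the other MAP kinases and 65.3% of those of the pathway list, against 79.2% at the p38 genes and 64.2% in the genome.

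**Figure D5:**
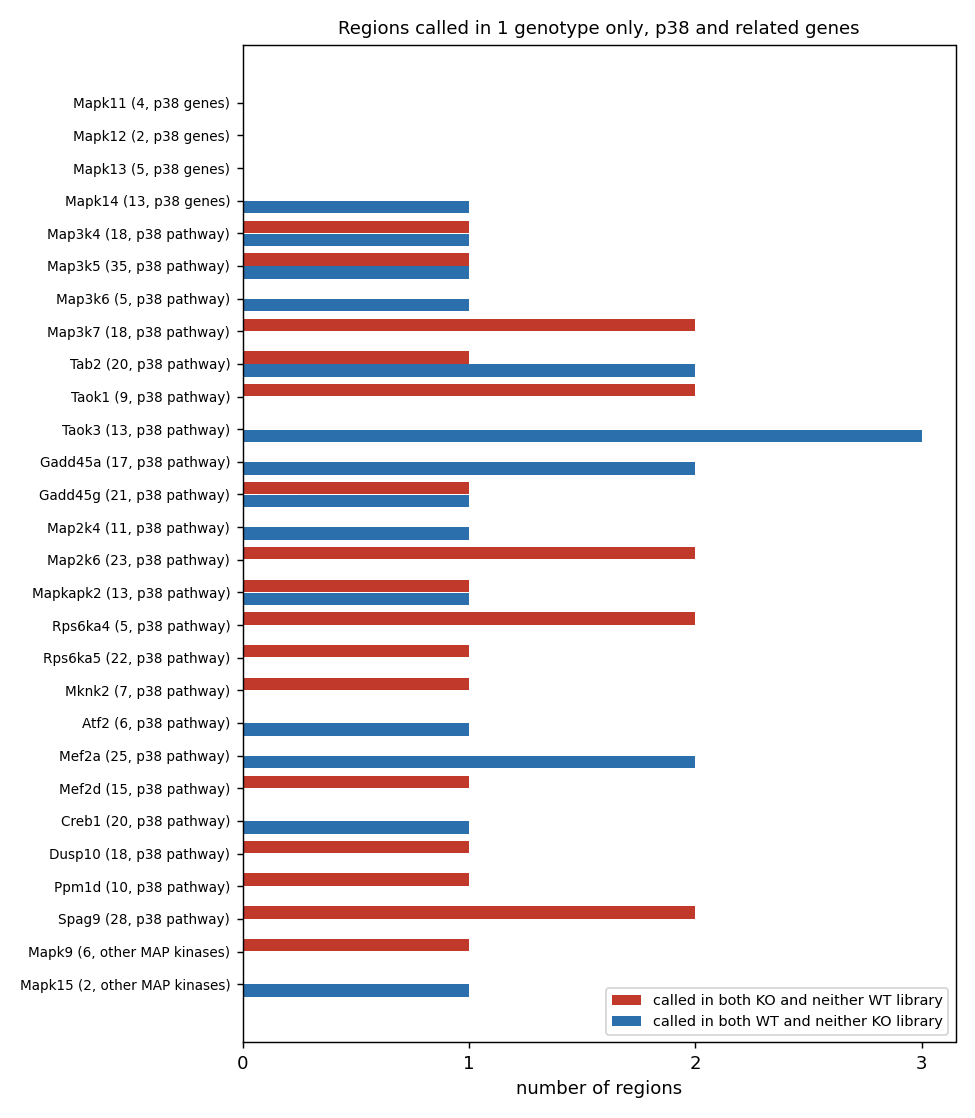
Number of regions called in both KO and neither WT library (red, upper bar) and in both WT and neither KO library (blue, lower bar) at the 4 p38 genes and at each gene of the pathway and MAP kinase lists that has any, with the number of regions called in 2 or more libraries in parentheses. Mapk14 has 0 and 1, and both colours occur along the pathway list, which has 20 and 17 in all.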

How the data were processed

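Open chromatin was measured by Omni-ATAC-seq in 4 libraries, 2 KO and 2 WT. MACS2 2.1.1, deepTools 3.1.2, bedtools, Picard, Bowtie2 2.3.4.1, cutadapt and Trim Galore and the builds GRCm38 and mm10 appear, per the submitters' processing notes, with no role for any. No source used here gives Tn5 shifting, duplicate handling or peak settings. The authors deposited 1 peak list per library, so replicates were not pooled. In the deposited lists each peak has a whole-number score (unused), a fold enrichment (a ratio to the local background), a −log10 p and a −log10 q, and no q is above 0.1.

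Peaks on chromosomes 1 to 19 and X were merged with Python 3.11.15 and pandas 2.3.3, and the merging was tested on simulated data. Positions are 1-based. RefSeq gene bodies of GRCm38 were used, a region tied between genes counted for each, and exon positions are not used here. KO-only and WT-only regions were called in both libraries of 1 genotype and neither of the other. Percentiles order a list by −log10 q. Sequence of the peaks is not used here. Named were the members, list genes with a genotype-specific region, Map2k3, Map2k6, Mapk3, Mapk8 and Mapk9, the neighbours and the 5 genes most like Mapk14. The members and lists were chosen with earlier results of these data known. Alternatives were a −log10 q of at least 5, equal lists, coverage of 0.5 of a region, genes within 20 kb, regions over 100 bp and leaving out each library. Some items are not reported here.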

Additional observations from a re-analysis of the deposited data

How the results depend on the processing

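The Mapk14 region had a lower WT percentile of 89.9 to 94.8 when 1 library was left out, and its WT-only call is fixed by the choice of the family. The WT-only count of the p38 genes was 3 with the same number of peaks per library, and 0 to 3 KO-only and 1 to 4 WT-only regions were found with 1 library left out. The difference in peaks at the p38 genes, 0.5, turned to −2 with a −log10 q of at least 5 and to −2.5 with the same number of peaks per library, and ran from −3 to 4 with 1 library left out. The median rank difference of −9.25 points was −3.50 with a −log10 q of at least 5 and −2.36 with 0.5 of each region covered, over 14 regions each, and −8.21 to −4.40 with 1 library left out. The pathway list had 7 WT-only regions with a −log10 q of at least 5, and 26 to 90 KO-only and 27 to 74 WT-only regions with 1 library left out. The other MAP kinases had 2 KO-only and 3 WT-only regions with a −log10 q of at least 5 and again with 0.5 of each region covered, 2 and 0 with the same number of peaks, and 4 to 10 and 2 to 8 with 1 library left out. The causes of these shifts were not tested. With the replicate number as a block the difference in peaks was again 0.5 and the rank difference −9.25. The labels do not say that a number marks a shared litter or day. Giving tied regions to 1 gene, an alternative chosen after seeing the data, changed no count of KO-only or WT-only regions. A list without a peak does not show closed chromatin, since calling depends on a depth not analysed here.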

Other observations

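The gene beside Mapk13, Brpf3, which encodes a scaffold of histone acetyltransferase complexes, had 0 KO-only and 3 WT-only regions among 12 called in 2 or more libraries. In the genome 2.89% of such regions were WT-only, and 14.8% of genes had any. All were low, with a −log10 q of 2.57 to 6.00 in the WT lists, and the tall region at 28801502 to 28801841 had 176.1 and 228.6 in KO and 184.3 and 315.5 in WT. Slc26a8, on the other side of Mapk14, and Hdac10 and Plxnb2, which flank Mapk12 and Mapk11, had 0 regions of either kind among 8, 3 and 7. Brpf3 was chosen after its values were seen.

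Within 1 Mb on either side of the Mapk14 region, 347 other regions were called in 2 or more libraries. Of these, 14 were KO-only (4.03%, against 4.34% in the genome) and 10 WT-only (2.88%, against 2.89%). The highest lower percentile among those 10 was 49.7, against 89.9 for the Mapk14 region. That region was chosen as the top ranked WT-only one, so all others had to be lower. This window was chosen after the values were seen.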
